A study of Mus musculus with 4 samples.

Results

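The mammary gland of mice that combined a PPARδ transgene with the PPARδ agonist GW501516 was set against that of wild-type mice given neither, which are 2 of the 4 arrays of the study. The first pool came from MMTV-PPARd mice, in which the mouse mammary tumour virus promoter drives PPARδ, kept for 1 week on chow containing GW501516. The pool it was set against came from wild-type littermates on standard chow. All were age-matched nulliparous females on the FVB background, and the age itself was not given. The other 2 arrays, wild type on GW501516 and MMTV-PPARd on chow, are given beside them where they show how a value varied. Each array read RNA of whole mammary gland pooled from 5 mice, so the group is 1 value with no replicate spread, no test was possible, and every ratio describes these pools only. The agonist content of the chow is 0.005% in the protocol and 0.001% in a treatment tag of the labels. The MMTV promoter is active in mammary epithelium and also in some other secretory and lymphoid tissues.

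PPARδ is a nuclear receptor that pairs with a retinoid X receptor, binds fatty acids and synthetic agonists such as GW501516, and switches on genes of fatty acid uptake, storage and oxidation. The gland of a virgin mouse is mostly fat, with sparse epithelial ducts and a lymph node embedded in the fat pad. During pregnancy the luminal cells form alveoli under prolactin, acting through JAK2 and STAT5, and begin to make caseins, whey proteins and milk fat.

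Of 12393 genes on the array, 7835 were kept and are called measured here, those reaching an intensity of 139 on at least 1 of the 4 arrays. Of these, 431 (5.50%) were at least 2-fold higher in the transgenic pool on GW501516 than in wild type on chow, and 330 (4.21%) were at least 2-fold lower. Values below 20.5 were raised to that floor before ratios were taken, so a fold with 1 side at the floor is a bound, written as at least N-fold. Such bounds made up 37 of the higher and 31 of the lower genes. Their size, and that of folds with a side just above the floor, moves with the floor: for Ppard the log2 bound of 7.69 was 5.89 with the floor at the 40th percentile, an intensity of 71.1. The quartiles of the log2 ratio were -0.27 and 0.22, with a median of -0.02. At a limit of 3-fold, 244 genes (3.11%) were higher and 161 (2.05%) lower. At the 2-fold limit, Melk lay just inside on the higher side at 2.002-fold and Fhdc1 just outside at 1.998-fold.

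**Figure D1:**
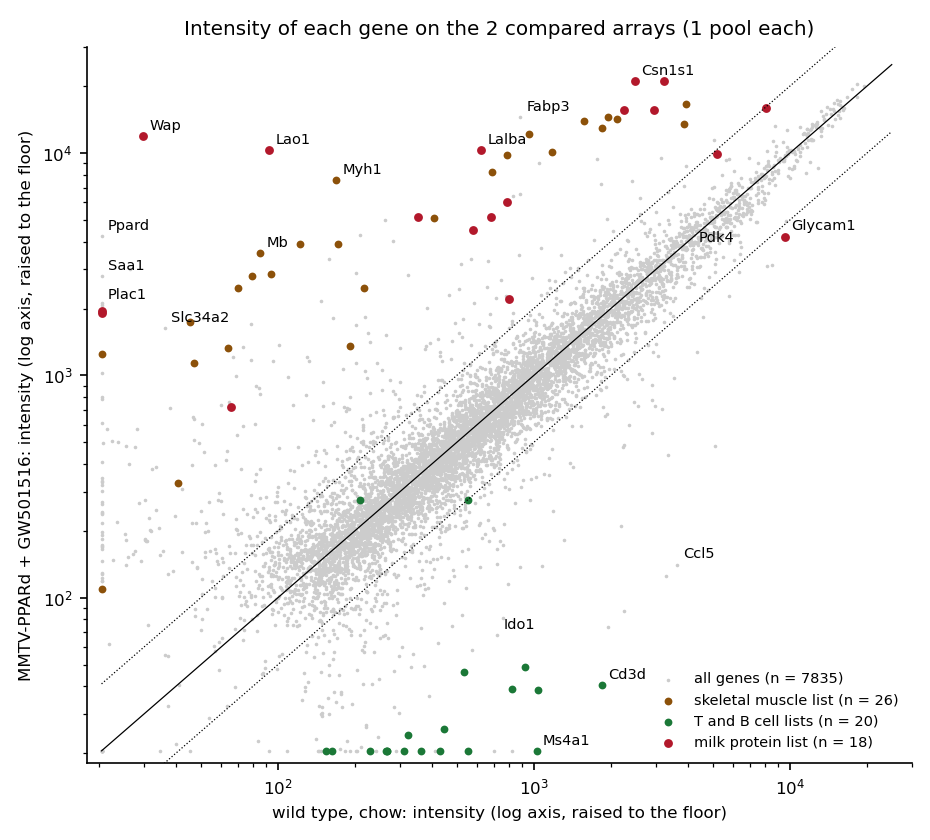
Intensity of each of 7835 genes in the MMTV-PPARd pool on GW501516 (vertical axis) and the wild-type pool on chow (horizontal axis), both log axes, 1 pool each, with values raised to the floor. The solid line marks equal levels and the dotted lines 2-fold. Milk protein genes such as Wap and muscle genes such as Myh1 lie far above the line, and T and B cell genes such as Cd3d lie far below it.

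The 2 pools differed strongly in markers of skeletal muscle and lymphocytes. Each of the 26 measured genes of skeletal muscle was higher by 2-fold or more in the transgenic pool on GW501516, with a median log2 ratio of 3.65, against -0.02 over all genes. Summed over the list's 29 genes on the array, intensity was 168047 in that pool, 48300.0 in transgenic mice on chow, 176723 in wild type on GW501516 and 20798 in wild type on chow. Myh1, a fast myosin heavy chain, read 7544, 1194, 9835 and 168.9 in the same order, and Mb, the oxygen store myoglobin, read 3548, 912.8, 4056 and 85.6. As means over all their probe sets, the log2 ratio of Myh1 was 3.59 in place of 5.48 and that of Mb 2.69 in place of 5.37. These means include probe sets below the floor in both pools, which enter as no difference. The further probe set of Myh1 that rose above the floor gave 5.29, and Mb had no such probe set. Both GW501516 pools were high and the wild-type pool on chow was the lowest. Of 13 measured T cell genes, 12 were lower by 2-fold or more and none higher by as much, with a median of -3.93. All 7 measured B cell genes were at least 2-fold lower, with a median of -3.74. The T cell genes Cd3e, Cd247, Cd5, Cd6, Cd8a, Cd8b1, Ccr7 and Cd28 reached the filter only in wild type on chow. The B cell genes Cr2 and Fcer2a did so too. Having passed on that array alone, these genes had to be lower in the transgenic pool on GW501516. The filter thus helps to set both the counts and the medians. The summed T cell markers read 510.5 in the transgenic pool on GW501516, 2331 in transgenic mice on chow, 609.2 in wild type on GW501516 and 7027 in wild type on chow. On the transgenic GW501516 array 9 of 14 T cell markers and 6 of 11 B cell markers lay below the floor, against 1 of 14 and 1 of 11 on the wild-type chow array. In pooled tissue, fewer cells of a type and less RNA per cell cannot be told apart. Genes whose levels over the 4 arrays track one of these 3 lists, with r above 0.95, are said below to follow them. Every measured member of the 3 lists counts as a follower too, whatever its r. Followers made up 26.2% of the higher and 49.4% of the lower genes, against 8.10% of all genes. They were picked on these same arrays or as list members, and the share is a description.

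Both arrays that are not compared here stood apart in other ways. The array of transgenic mice on chow differed in the spiked-in control BioB, whose middle probe set read 32.4 there against 438.1 to 519.0 on the other 3. The array of wild type on GW501516, a pool without the transgene, differed in markers of salivary gland. The summed intensity of these markers was 3788.5 in the transgenic pool on GW501516, 3060.2 in transgenic mice on chow, 10976 in wild type on GW501516 and 4064.5 in wild type on chow. In the same order 8, 8, 1 and 7 of the 11 markers lay below the floor. The part of these differences in values that use these 2 arrays was not tested.

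Cd3d, a chain of the T cell receptor complex, read 40.4 in the transgenic pool on GW501516 and 1841 in wild type on chow, 45.6-fold lower (a log2 ratio of -5.51, or -4.69 with the floor at the 40th percentile). Ms4a1, the B cell antigen CD20, read 17.6 and 1028, at least 50.1-fold lower. Ccl5, a chemokine made by T cells, was 25.8-fold lower and Ccr7, the receptor that guides lymphocytes into lymph nodes, at least 21.0-fold lower. Marco, a scavenger receptor of macrophages in lymphoid tissue, read 2.6 and 410.8. Of 13 measured macrophage markers, Marco among them, 2 were lower (15.4%) and 1 higher (7.69%) by 2-fold or more, against 4.21% and 5.50% of all genes. Ratios below 0 were found for 11 of the 13 (median -0.42). Fcgr1, an IgG receptor, differed by -1.38 on the log2 scale, Lyz2, lysozyme, by -0.96, Csf1r by -0.20 and Adgre1 by 0.34. Of 8 measured genes of MHC class II presentation, 7 were at least 2-fold lower, among them Cd74, the invariant chain, at 726.4 and 2971 and H2-Aa at 3125 and 8497. Of 10 measured chemokines, 7 were at least 2-fold lower and 0 higher, including Cxcl13, which attracts B cells (209.4 against 2189), Ccl7 (33.4 against 194.5) and Ccl2 (58.2 against 213.6). Of the 8 class II genes 7 follow the muscle or lymphocyte lists, as do 2 of the 10 chemokines, against 8.10% of all genes. T and B cell markers were lower in the same comparison, and their part in the class II and chemokine values was not tested.

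Of the 12 highest genes measured above the floor in both pools, 8 follow the muscle or lymphocyte lists, namely Trdn, Myh1, Mb, Ckmt2, Smpx, Myot, Tcap and Ttn, and the other 4 are Wap and Lao1 of the milk protein list and Slc34a2 and Aqp3 of the epithelial transport list. Of the 8, all but Trdn are members of the muscle list and count as followers by rule. All 12 lowest follow these lists too: Cd3d, Cd3g, Ltb, Trav9d-3, Trbv1, Ccl5, Il7r, Cd79b, Pou2af1, Cd22, Cd2 and Gimap7. Among them Cd3d, Cd3g, Il7r, Cd79b, Pou2af1, Cd22 and Cd2 are members of the T or B cell lists and count by the same rule. For Cd22, at -3.74 on the log2 scale, a dimmer probe set read 0.9 and 30.1, a bound of -0.55. With the floor at the 40th percentile Cd22 had -2.18. Trdn had 6.82, against 3.25 as a mean over its probe sets, some of them at the floor. Its other probe sets above the floor in either pool gave 4.30, 4.93, at least 3.20 and at least 0.25.

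Ppard, the transgene's own gene, was read by 1 probe set. It read 4224 in the transgenic pool on GW501516, 1943 in transgenic mice on chow, 1.5 in wild type on GW501516 and 2.1 in wild type on chow. Both wild-type arrays lie below the floor, and the level was at least 206-fold higher in the transgenic pool on GW501516 than in wild type on chow. The related receptors were lower by less than 2-fold. Ppara, the liver and muscle form, read 78.3 and 147.9 (1.89-fold lower) and Pparg, the adipocyte form, 1035 and 1770.3 (1.71-fold lower). Rxra, a partner of all PPARs, was 1.44-fold higher. Of 11 measured receptors, partners and coregulators, Ppard alone differed by 2-fold or more.

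Milk protein genes were the other leading group. Of 18 measured members of the list, 15 lay 2-fold or more above wild type on chow and 1 below it. Their median log2 ratio was 2.95, and it stayed between 2.91 and 3.10 under the processing alternatives tried. Wap, the whey acidic protein, read 11881 in the transgenic pool on GW501516, 1098 in transgenic mice on chow, 98.6 in wild type on GW501516 and 29.8 in wild type on chow, a 399-fold difference between the 2 pools compared. With the floor at the 40th percentile the log2 ratio was 7.38 in place of 8.64. Its level on the combined array stood well apart from all 3 others. Lao1, an L-amino acid oxidase secreted into mouse milk, read 10319, 221.2, 718.6 and 92.5 in the same order and was 112-fold higher. Csn1s2b, a calcium-sensitive casein, read 1954, 63.8, 2.7 and 1.2, at least 95.3-fold higher. Olah, the thioesterase that ends fatty acid synthesis at medium chain length, read 1912, 154.1, 3.1 and 1.2, at least 93.2-fold higher. For these 4 genes the transgenic pool on GW501516 was the highest of the 4 arrays by a wide margin.

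At their brightest probe sets, the abundant caseins were also higher but less set apart from the single-factor pools. Csn1s1 (α-S1-casein) read 21047 in the transgenic pool on GW501516, 13145 in transgenic mice on chow, 8302 in wild type on GW501516 and 2489.7 in wild type on chow, and was 8.45-fold higher. Csn2 (β-casein) read 15562, 10562, 11104.5 and 2258, 6.89-fold higher. Csn1s2a read 21072, 14140.0, 11884 and 3215, 6.55-fold higher. For these 3 genes wild type on chow was the lowest of the 4 arrays. The dimmer probe sets of Csn1s2a gave log2 ratios of 5.20, 4.99 (a bound) and 2.63 beside the 2.71 of the bright one. In the same order of pools, that with 5.20 read 1095, 223.4, 127.8 and 29.7, and that with 4.99 read 650.9, 164.9, 52.0 and 15.6. These set the combined pool further apart, while that with 2.63 read 15480, 10811, 9028 and 2503. The bright value of 21072 was the highest intensity on its array. Whether very bright probe sets understate such gaps was not tested. Csn3, the κ-casein that caps the micelle, lay just under 2-fold at 1.99-fold.

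Lalba encodes α-lactalbumin, which lactose synthesis needs, and read 10325 in the transgenic pool on GW501516, 159.0 in transgenic mice on chow, 1768 in wild type on GW501516 and 624.5 in wild type on chow. It was 16.5-fold higher in the combined pool, while transgenic mice on chow had the lowest level. Folr1, a folate receptor, was 14.6-fold, Cel, the bile salt-stimulated lipase of milk, 11.0-fold and Muc15, a membrane mucin, 7.75-fold higher. Btn1a1, which coats milk fat globules, was 7.71-fold higher. Its other probe sets gave a bound of 0.57 and a ratio of 2.99 on the log2 scale. Ltf, the iron-binding lactoferrin, was 7.63-fold and Wfdc18, a whey acidic protein relative, 5.31-fold higher. Xdh, xanthine dehydrogenase of the fat globule membrane, was 2.76-fold and Mfge8 1.90-fold higher. Glycam1 went the other way, at 4207 in the transgenic pool on GW501516 and 9535 in wild type on chow (2.27-fold lower), while transgenic mice on chow read 8128 and the wild type on GW501516 read 2.2. It is made by mammary epithelium and by high endothelial vessels of lymph nodes, and lymphocyte markers were lower in this comparison. Its share from either source was not tested.

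**Figure D2:**
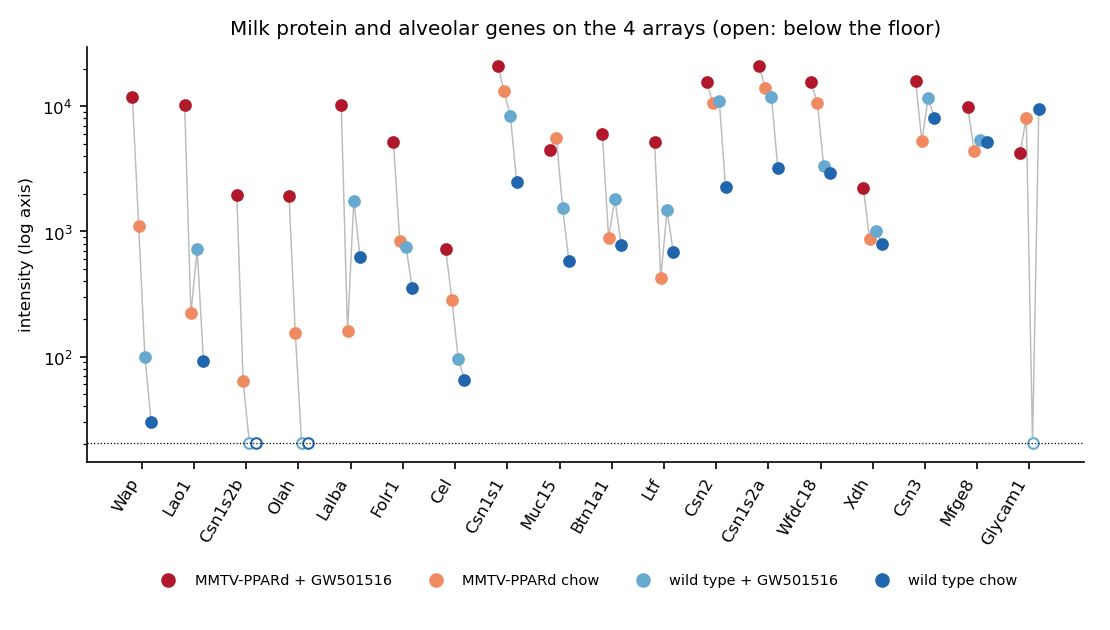
Intensity (log axis) of the 18 milk protein and alveolar genes on the 4 arrays, ordered by the ratio of the 2 pools compared. Open points lie below the floor (dotted line). Wap, Lao1, Csn1s2b and Olah stand highest in MMTV-PPARd mice on GW501516 by far, while Csn1s1, Csn2 and Csn1s2a are less set apart at the probe sets shown.

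The sequences before the start sites of 4 of these genes are shown because milk genes were higher together and casein promoters are textbook STAT5 targets. They are from RefSeq (GRCm38.p6), 250 bases each, 5′ to 3′ on the gene's strand. Capitals mark the STAT5-type letters TTCNNNGAA, which read the same on both strands.
Csn1s1, chr5:87665958-87666207, plus strand: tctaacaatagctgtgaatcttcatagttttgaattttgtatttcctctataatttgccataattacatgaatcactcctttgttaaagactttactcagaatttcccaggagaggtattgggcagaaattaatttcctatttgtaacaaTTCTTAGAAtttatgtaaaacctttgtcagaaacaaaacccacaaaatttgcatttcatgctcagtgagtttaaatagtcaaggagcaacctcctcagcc
Csn2, chr5:87699426-87699675, minus strand: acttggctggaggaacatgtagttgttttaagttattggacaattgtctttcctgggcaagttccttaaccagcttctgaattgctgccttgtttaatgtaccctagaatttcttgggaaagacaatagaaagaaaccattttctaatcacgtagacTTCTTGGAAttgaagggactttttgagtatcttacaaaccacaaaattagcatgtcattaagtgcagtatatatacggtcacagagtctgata
Wap, chr11:6638650-6638899, minus strand: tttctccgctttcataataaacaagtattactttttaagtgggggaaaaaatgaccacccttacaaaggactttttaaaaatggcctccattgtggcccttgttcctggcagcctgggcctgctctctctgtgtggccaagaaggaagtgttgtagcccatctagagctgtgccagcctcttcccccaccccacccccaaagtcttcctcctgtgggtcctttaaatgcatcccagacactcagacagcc
Glycam1, chr15:103565082-103565331, minus strand: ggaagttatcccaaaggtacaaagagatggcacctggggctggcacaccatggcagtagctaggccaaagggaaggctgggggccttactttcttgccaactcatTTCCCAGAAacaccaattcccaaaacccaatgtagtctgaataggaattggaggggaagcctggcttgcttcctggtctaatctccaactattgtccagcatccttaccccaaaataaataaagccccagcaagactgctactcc
The match begins 100 bases before the start of Csn1s1, 93 before that of Csn2 and 145 before that of Glycam1, while the Wap window holds none. Over windows of 250 bases before to 50 after the start, these letters occur in 4 of 12 milk genes with a window (33.3%). They occur in 26 of 335 genes at least 2-fold higher (7.76%) and in 35 of 237 genes at least 2-fold lower (14.8%). Among measured genes with a window they occur in 529 of 6365 (8.31%), and among all genes with a window in 2582 of 27025 (9.55%). The PPAR-type letters are 2 copies of AGGNCA in the same direction with any 1 base between them, on either strand. They occur in 2 of 335 higher genes (0.597%) and in 0 of 14 PPAR target genes with a window. Among measured genes with a window they occur in 16 of 6365 (0.251%), and among all genes with a window in 122 of 27025 (0.451%). A match is a description of letters in this window and says nothing of binding.

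Genes that act upstream of milk synthesis were not all higher. Elf5, a transcription factor that specifies alveolar cells, read 6524 in the transgenic pool on GW501516, 4920.3 in transgenic mice on chow, 1295 in wild type on GW501516 and 882.3 in wild type on chow, 7.39-fold higher, with both transgenic pools high. Ehf, an epithelial ETS factor, was 2.08-fold higher, highest in transgenic mice on chow. Stat5a, the prolactin-activated factor, and Gata3, a luminal regulator, differed by 0.53 and 0.51 on the log2 scale. Socs2 and Cish are switched on by STAT5 and damp its signalling. Socs2 read 1005 and 2238 (2.23-fold lower) and Cish 240.3 and 486.8 (2.03-fold lower), though Cish is among the followers of the muscle and lymphocyte lists. Socs3 was 2.04-fold lower, but its other probe sets gave -0.91 and 0.35. Tnfsf11, the RANK ligand through which progesterone drives alveolar growth, read 0.7 and 92.3 (at least 4.50-fold lower), with 382.4 in transgenic mice on chow. With the floor at the 40th percentile Tnfsf11 no longer reached 2-fold, at -0.38 on the log2 scale. In all, 2 of 13 measured members were at least 2-fold higher and 4 lower. Among hormone response genes, Esr1 and Pgr, the oestrogen and progesterone receptors, did not reach the filter on any array, and Greb1, an oestrogen-responsive gene, was 2.09-fold lower.

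Of 15 measured luminal markers, 6 reached 2-fold on the higher side and 0 on the lower, and the median was 0.70. Muc1, an apical mucin, read 479.0 in the transgenic pool on GW501516, 206.8 in transgenic mice on chow, 65.7 in wild type on GW501516 and 27.6 in wild type on chow, 17.4-fold higher (a log2 ratio of 4.12, or 2.75 with the floor at the 40th percentile). Epcam read 5309, 5565, 3442 and 2588 in the same order, 2.05-fold higher. The luminal keratins Krt8, Krt18 and Krt7 differed by 0.45, 0.27 and -0.51 on the log2 scale, and Krt7 was the single luminal marker below 0. Of 10 measured basal and myoepithelial genes only Krt14 reached 2-fold, at 2818, 3652, 334.9 and 323.2 (8.72-fold higher). Both transgenic pools were high, and its other probe sets gave a bound of 0.80 and a ratio of 3.20 on the log2 scale. Its usual partner Krt5 differed by -0.01 on the log2 scale and the basal factor Trp63 by 0.56.

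The 14 measured genes of epithelial transport and junctions all had ratios above 0, and 9 reached 2-fold. The median was 1.62. Slc34a2, a sodium phosphate cotransporter, read 1632 in the transgenic pool on GW501516, 456.0 in transgenic mice on chow, 92.9 in wild type on GW501516 and 36.3 in wild type on chow, 45.0-fold higher (a log2 ratio of 5.49, or 4.52 with the floor at the 40th percentile). Aqp3, a channel for water and glycerol, read 1808.5, 780.0, 26.4 and 51.0, 35.5-fold higher. On the log2 scale 2 further probe sets gave bounds of 5.08 and 5.23, beside its 5.15. Both genes were high in the 2 transgenic pools and low in the 2 wild-type pools. Scnn1g and Scnn1b, subunits of the epithelial sodium channel, were 10.9-fold and 4.09-fold higher. Scnn1g read 896.5, 116.5, 31.7 and 82.3 and stood apart on the combined array. The connexins Gjb2 (603.0, 1729.7, 72.8 and 50.4) and Gjb6 (123.3, 1326, 22.1 and 10.5) were higher by 3.58 and at least 2.59 on the log2 scale, with the highest level in transgenic mice on chow. Gjb6 no longer reached 2-fold with the floor at the 40th percentile, at 0.79. The tight junction genes Ocln, Cldn3 and Cldn7 were 3.39-fold, 2.79-fold and 2.46-fold higher.

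Saa1, Saa2 and Pigr were among the 8 highest bounds. Saa1, an acute-phase protein, read 2794 in the transgenic pool on GW501516, 428.8 in transgenic mice on chow, 82.5 in wild type on GW501516 and 9.2 in wild type on chow, at least 136-fold higher. Saa2 was higher by at least 5.64 on the log2 scale, and the 2 genes are close copies whose probe sets may share transcripts. Pigr, which carries IgA across epithelium, read 2115, 489.5, 36.5 and 18.1, at least 103-fold higher. Igha, the heavy chain constant region of IgA, read 1409, 6955, 502.6 and 229.4, 6.14-fold higher with its maximum in transgenic mice on chow. Chil1 was 8.33-fold and Lcn2, lipocalin 2, 3.02-fold higher. Of 14 measured acute-phase and innate defence genes, 7 reached 2-fold on the higher side and 3 on the lower. The lower ones were Hp (haptoglobin, -1.39 on the log2 scale), S100a9 (-1.17) and Slpi (-1.07). The list's median of 1.07 was 0.07 without probe sets whose name ends in _x_at or _s_at. Plac1, first known from placenta, read 2075, 1823, 15.8 and 9.2, at least 101-fold higher and high in both transgenic pools.

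Among genes not counted as followers of muscle or lymphocytes, the 12 highest measured in both pools were Wap, Lao1, Slc34a2, Aqp3, Klk11, Tc2n, Slc28a3, Muc1, Lalba, Fabp3, Arg1 and Folr1. Slc28a3, a nucleoside transporter, read 4281 in the transgenic pool on GW501516, 1126 in transgenic mice on chow, 366.2 in wild type on GW501516 and 209.8 in wild type on chow, 20.4-fold higher. Klk11, a secreted serine protease, was 22.5-fold higher and Arg1, arginase, 14.7-fold. The log2 ratio of Klk11 was 4.49, or 2.83 with the floor at the 40th percentile, which lies above its level of 22.5 in wild type on chow. Tc2n, a protein with C2 domains, was 21.1-fold higher. Its log2 ratio of 4.40 was 2.81 with that higher floor, and 2 dimmer probe sets gave bounds of 1.59 and 3.47. The 12 lowest in the same set were Ido1, Cxcl13, Itgb7, Pcp4, Igkv8-30, Aoc1, Rgs14, Ccl7, H2-DMb2, Tlr1, Clec4n and Fcgbp. Ido1, which degrades tryptophan, read 68.1, 47.4, 135.9 and 718.3, 10.5-fold lower. Aoc1, diamine oxidase, was 6.36-fold lower and read 477.2 in wild type on chow. For both genes wild type on chow was by far the highest of the 4 arrays.

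PPAR target genes divided into 6 that reached 2-fold, all higher, and 12 that did not. The median of the 18 measured was 0.25. Fabp3, a fatty acid binding protein of muscle and lactating mammary cells, read 14533 in the transgenic pool on GW501516, 4160.2 in transgenic mice on chow, 2436 in wild type on GW501516 and 884.2 in wild type on chow, 16.4-fold higher. Acaa1b, a peroxisomal thiolase, read 6432, 3838, 1973 and 828.8, 7.76-fold higher. Both were lowest in wild type on chow and highest in the combined pool. Ucp3, a mitochondrial carrier found mainly in skeletal muscle, read 1055, 393.1, 482.3 and 255.7, 4.13-fold higher. Acot1, a cytosolic acyl-CoA thioesterase, read 2494, 4503, 972.6 and 656.7, 3.80-fold higher. Plin2, which coats lipid droplets and milk fat globules, read 11489.9, 7680.4, 5977 and 5063, 2.27-fold higher. Ehhadh, the bifunctional enzyme of peroxisomal oxidation, read 1255, 1249.8, 634.5 and 613.1, 2.05-fold higher, and it and Acot1 were high in both transgenic pools.

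Pdk4, Angptl4 and Cpt1a, common readouts of PPARδ, differed by less than 2-fold. Pdk4, a kinase that limits pyruvate oxidation, read 3719 in the transgenic pool on GW501516, 4059.7 in transgenic mice on chow, 5446 in wild type on GW501516 and 4172 in wild type on chow, 1.12-fold lower. Angptl4, an inhibitor of lipoprotein lipase, was 1.30-fold higher at 6285 and 4852. Cpt1a, which admits fatty acids to mitochondria, was 1.09-fold higher at 836.1 and 764.8. No level of these 3 genes on any array reached 2-fold from that in wild type on chow. Skeletal muscle and milk protein genes, with medians of 3.65 and 2.95, were higher in the same comparison, and their part in the values of Fabp3, Ucp3 and Plin2 was not tested.

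**Figure D3:**
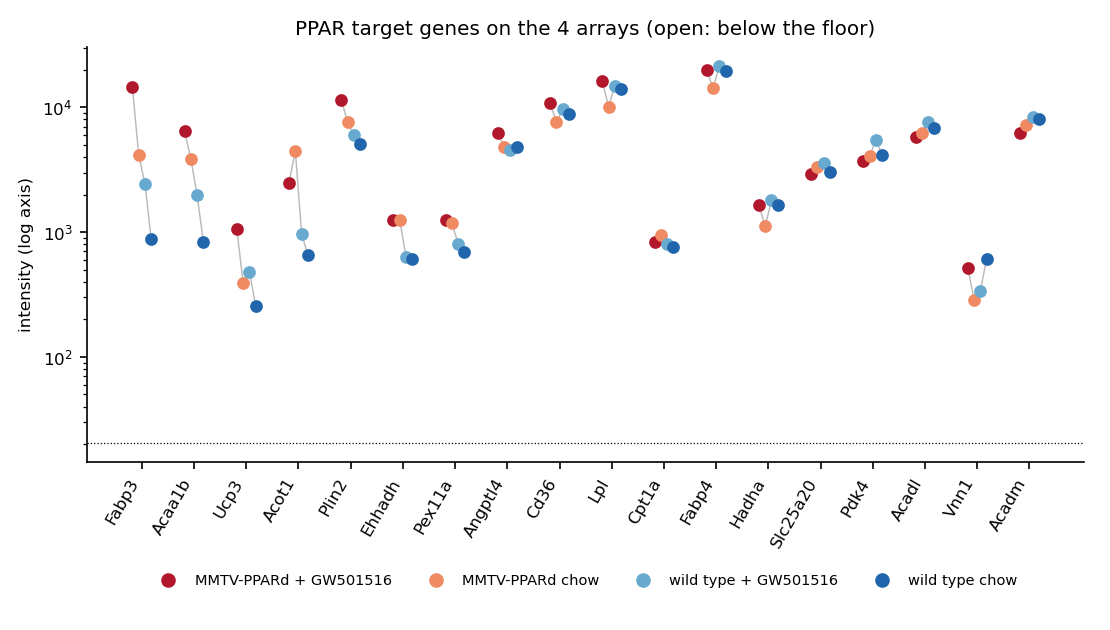
Intensity (log axis) of the 18 measured PPAR target genes on the 4 arrays, ordered by the ratio of the 2 pools compared. The dotted line is the floor. Fabp3, Acaa1b, Ucp3, Acot1, Plin2 and Ehhadh lie at least 2-fold higher in MMTV-PPARd mice on GW501516 than in wild type on chow, and the levels of Pdk4, Angptl4 and Cpt1a each differ by less than 2-fold between those pools.

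None of the 17 measured genes of mitochondrial fatty acid oxidation reached 2-fold. Of these, 14 were below 0, against 4083 of all 7835 genes. The log2 ratios of the 17 ran from -0.43 to 0.13, with a median of -0.25, against -0.02 over all genes. Acadvl, the very long chain acyl-CoA dehydrogenase, read 3408 in the transgenic pool on GW501516, 4085 in transgenic mice on chow, 4339.6 in wild type on GW501516 and 4603 in wild type on chow, 1.35-fold lower. White adipocyte markers had a median of -0.23 and 10 of 16 below 0, and Lipe, hormone-sensitive lipase, was 1.44-fold lower. Both medians were below 0, and the part of adipocytes in the oxidation values was not tested. Among lipid synthesis genes, the desaturases Fads1 (2277 against 778.6, 2.92-fold) and Fads2 (463.7 against 192.3, 2.41-fold) were the only ones of 19 measured to reach 2-fold. They make up 10.5% of the 19, against 5.50% of all genes higher by as much. Srebf1, a master regulator of lipogenesis, read 6664 and 3337, just under 2-fold at 1.997-fold, while Fasn, fatty acid synthase, differed by 0.04 on the log2 scale. In the milk fat list, 7 of 15 lay 2-fold or more higher, including Acsl4, an acyl-CoA synthetase (1803 against 529.0, 3.41-fold). Of 14 measured cholesterol synthesis genes, 3 reached 2-fold, all of them higher: Mvd (2.65-fold), Lss (2.23-fold) and Sqle (2.23-fold). Other probe sets stayed under 2-fold, at 0.80 on the log2 scale for Mvd and at 0.62 (a bound) and 0.77 for Lss.

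Of 21 measured cell cycle and mitosis genes, 2 reached 2-fold on the higher side (9.52%, against 5.50% of all genes) and 0 on the lower. Of the same 21, 20 had ratios above 0, against 3741 of all 7835 genes. Their median ratio came to 0.66 on the log2 scale. Mki67, a marker of cycling cells, read 935.8 in the transgenic pool on GW501516, 1017 in transgenic mice on chow, 401.4 in wild type on GW501516 and 447.5 in wild type on chow, 2.09-fold higher. Kif20a, a mitotic kinesin, was 2.05-fold higher at 177.6 and 86.8. Of 18 measured DNA replication genes, 16 were above 0 and none reached 2-fold (median 0.35). Both transgenic pools lay above both wild-type pools for Mki67, Kif20a, Mcm6 and Rrm2.

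The list medians of the single-factor comparisons stand beside these, each sharing the wild-type chow array with the combined one. For milk protein genes the median log2 ratio was 2.95 for the combined comparison, 1.10 for GW501516 in wild type and 1.45 for the transgene alone. For epithelial transport and junction genes it was 1.62, 0.22 and 1.56. For cell cycle genes it was 0.66, -0.24 and 0.93. For skeletal muscle it was 3.65, 3.77 and 1.55, for T cell markers -3.93, -3.93 and -1.57, and for PPAR targets 0.25, 0.15 and 0.06.

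**Figure D4:**
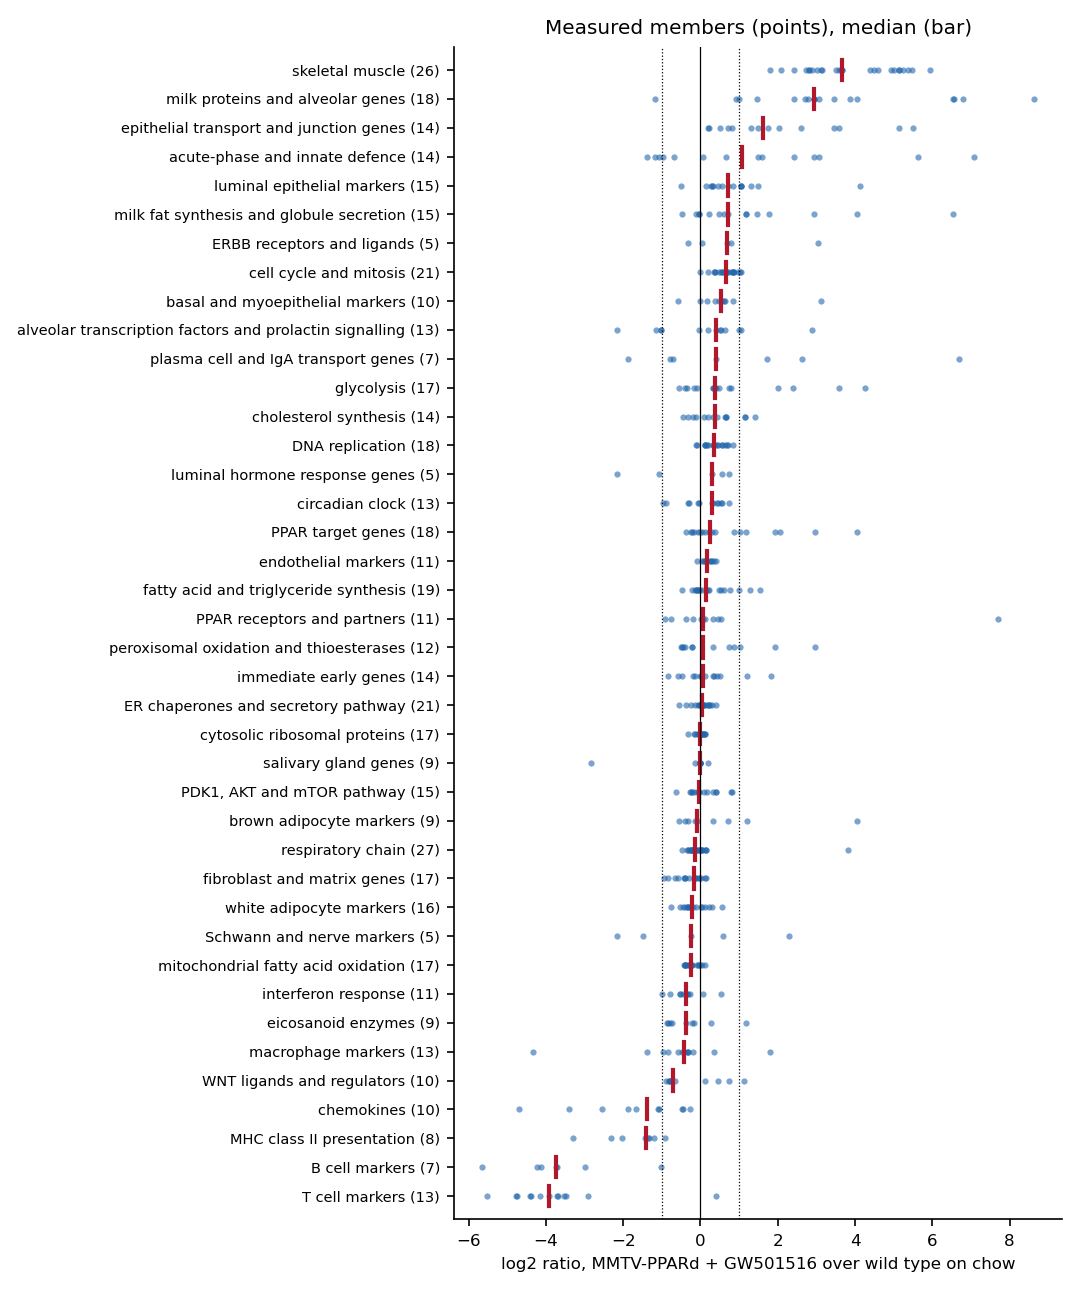
Log2 ratio of each measured gene (points) and the median (bar) for the lists with at least 5 measured genes, MMTV-PPARd on GW501516 over wild type on chow. The number of measured genes is in brackets, and the dotted lines mark 2-fold. Skeletal muscle (3.65) and milk protein genes (2.95) have the highest medians, and B cell (-3.74) and T cell markers (-3.93) the lowest.

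The genes with the widest gap between the combined array and the nearest of the other 3 were picked on these values and are given as a description. The largest gaps above the next array belonged to Csn1s2b, Lao1, Olah, Wap, Tc2n, Saa2, Il1f9 and Scnn1g. Il1f9, an interleukin 1 family cytokine of epithelia, read 197.6 in the transgenic pool on GW501516, 19.5 in transgenic mice on chow, 24.8 in wild type on GW501516 and 3.2 in wild type on chow. The largest gaps below the next array belonged to Ptprcap, Fcgbp, Clca3a2, Cxcl13, Bmp2, Ear3, Mtch2 and Cox15. Bmp2, a bone morphogenetic protein, read 37.7, 114.7, 146.3 and 165.8, 4.40-fold lower (a log2 ratio of -2.14, or -1.22 with the floor at the 40th percentile). Mtch2 and Cox15, both mitochondrial, read 974.8 against 3515 and 94.8 against 265.2. Their other probe sets lay between -0.24 and 0.03 (the latter a bound) and between -0.13 and 0.61 on the log2 scale. The ratios of Mtch2 and Cox15 thus rest on 1 probe set each.

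The remaining pair of arrays, transgenic mice on chow over wild type on GW501516, shares no array with the combined comparison. It rests on the arrays that stood apart in the spiked-in controls and in salivary gland markers, whose median there was -3.70. In it a difference that goes with genotype keeps its sign and one that goes with diet turns its sign. Of the 431 genes at least 2-fold higher in the combined comparison, 121 (28.1%) were at least 2-fold higher there and 140 (32.5%) at least 2-fold lower, against 5.86% and 4.22% of all 7835 genes. The 121 are 26.4% of the genes higher in that comparison and the 140 are 42.3% of those lower. Of the 330 lower genes, 119 (36.1%) were at least 2-fold higher there and 13 (3.94%) at least 2-fold lower. Across genes the 2 ratios correlated weakly (Pearson -0.17, Spearman 0.03, 7835 genes). Over the 7200 genes that follow none of the 3 lists the Pearson value had the other sign, 0.24. The followers left out were selected on these same arrays, which helps to set that value, and genes are not independent replicates. Of the 113 higher genes counted as followers of muscle or lymphocytes, 101 (89.4%) were at least 2-fold lower there, which their selection on these arrays helps to set. Of the other 318, 121 (38.1%) were at least 2-fold higher there and 39 (12.3%) at least 2-fold lower, and the same selection helps to set these shares. Muscle genes had the sign of a diet difference, with a median of -2.28 there, and so had T cell markers, with 2.12. Their medians for the transgene on chow were 1.55 and -1.57. With 1 pool per group, diet cannot be told apart from other differences between pools. Ppard, Plac1, Slc34a2 and Krt14 lay on the side of the genotype difference, while Lalba and Lao1 had the opposite sign. Milk protein genes were on both sides, with a median of 0.21.

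**Figure D5:**
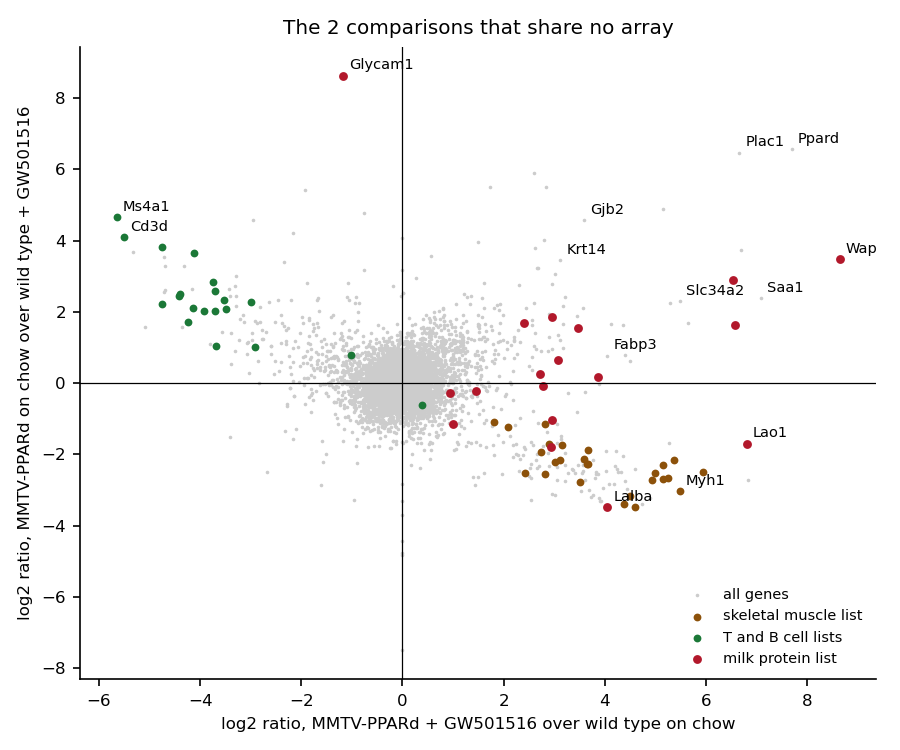
Log2 ratio of each of 7835 genes for MMTV-PPARd on GW501516 over wild type on chow (horizontal) and for MMTV-PPARd on chow over wild type on GW501516 (vertical), which share no array. Muscle genes lie at the lower right and T and B cell genes mostly at the upper left, while Wap, Plac1 and Ppard lie at the upper right.

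Other probe sets gave a check on single values but not on the pools. For 252 of the genes past 2-fold, at least 1 further probe set was measured. The median ratio of such probe sets, some of them near the floor, had the same sign for 236 and the opposite sign for 16, among them Ighm, the IgM heavy chain. Over 3572 genes with such further probe sets, the difference between the probe set used and the median of the others had an SD of 0.46 on the log2 scale. These probe sets share the arrays, so this SD holds no scatter between pools. Of 9 measured salivary gland genes, 6 lay below the floor in both pools compared and Prol1 was at least 7.18-fold lower.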

How the data were processed

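RNA of whole mammary gland, pooled from 5 mice per group, was hybridised to 4 mouse arrays of 22690 probe sets, 1 array per group. The values deposited by the authors are probe set intensities on a linear scale, made from biotin-labelled cRNA per the labels' protocols. The software that summarised the probes is not given in the sources used here. Taken over each array, the mean without the lowest and highest 2% was 500.17 to 500.2 on every array, so each had been scaled to a common level. Median intensity was 137.15 in the transgenic pool on GW501516 and 137.3 in the wild-type pool on chow, and 139.0 and 144.0 on the other arrays.

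With Python 3.11.15, gene symbols came from the platform's annotation, updated by gene ID through a RefSeq table (GRCm38.p6). Of all probe sets, 691 with several symbols and 1606 not listed named no gene, and control probe sets were left out. Each of 12393 genes was represented by its brightest probe set (mean of the 4 arrays). A floor of 20.5, the 25th percentile, was set under the values, and 7835 genes reaching the median of all values, 139, on at least 1 array were kept. Calls are ratios of at least 2-fold. With 1 array per group there is no test, and the number of arrays limits every value. Lists with fewer measured genes than those on the array lost members to the filter, and a member kept through 1 pool alone had to differ.

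Named were Ppard, the 12 highest and lowest genes measured in both pools, with and without those following muscle or lymphocyte lists, the 8 highest and lowest bounds, the 8 largest gaps from the other 3 arrays, the milk list, up to 6 members of each other list with the largest difference, and Pdk4, Angptl4, Plin2 and Cpt1a. Other names are members of the 41 lists, or, like Melk and Fhdc1, were chosen after their values were seen. The members and lists were chosen with earlier results of these data known. Scaling, floor, filter, probe set choice and threshold were varied. The steps were tested on simulated data.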

Additional observations from a re-analysis of the deposited data

How the results depend on the processing

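No value has a replicate check, and no paired analysis was possible because each group was 1 array. The counts of 431 higher and 330 lower genes depended on filter and threshold. They were 215 and 110 with the stricter filter (75th percentile on 1 of the 2 compared arrays), 244 and 161 at 3-fold, and 517 were lower without a filter, since fewer or more genes were then counted. Without genes that follow the muscle and lymphocyte lists 167 were lower. In that setting 12.3% of the higher genes were lower, and 14.4% of the lower genes higher, on transgenic chow than in wild type on GW501516, and this second share was 22.6% with the floor at the 40th percentile. For T cell markers the median was -4.76 with the floor at the 10th percentile and with the stricter filter and -2.36 with the floor at the 40th, and the B cell median -2.18 with the floor at the 40th percentile and -2.99 without a filter. Without a filter the ERBB list stood at 0.19 and chemokines at -0.54. Under the stricter filter the acute-phase list stood at 1.60, and the medians of brown adipocyte (0.28), plasma cell (-0.16), Schwann (0.18) and WNT genes (0.13) changed sign. With the mean over probe sets the brown adipocyte (0.11) and clock (-0.06) medians changed sign and the plasma cell median was 1.11. The WNT median was -0.16 with the floor at the 40th percentile, the acute-phase median 0.07 without _x_at and _s_at probe sets, and the hormone response median -0.37 without the following genes. The other causes were not tested. Of 416 such values, 389 kept their size and direction. Of 2241 values of single named genes, 93 moved by more than 0.46 (log2) and 0 changed sign where the ratio was past 2-fold.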

Other observations

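Further groups showed little difference between the transgenic pool on GW501516 and wild type on chow. Cytosolic ribosomal proteins had a median log2 ratio of 0.00 with none of 17 at 2-fold, and chaperones and secretory pathway genes of the endoplasmic reticulum 0.04 with none of 21, although milk protein genes were higher. Of 15 measured genes of the PDK1, AKT and mTOR pathway none reached 2-fold, and Pik3r1, a regulatory subunit of PI3 kinase, differed by 0.82 on the log2 scale, with -0.25 and 0.85 at its other probe sets. Pdpk1, the kinase PDK1, read 1055 and 846.1. Endothelial markers had a median of 0.17 and fibroblast and matrix genes -0.16 with none at 2-fold, and Col1a1 read 1751 and 2782. Interferon response genes had a median of -0.37 and eicosanoid enzymes -0.37, with Ptges, a prostaglandin E synthase, 2.24-fold higher.

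Single genes of other lists reached 2-fold. Egf, a ligand of the EGF receptor, read 169.2 in the transgenic pool on GW501516, 32.0 in transgenic mice on chow, 164.2 in wild type on GW501516 and 17.7 in wild type on chow, at least 8.25-fold higher in the first than in the last. It was high in both GW501516 pools and is among the genes that track the muscle and lymphocyte lists. Sox10, a factor of Schwann cells that mammary epithelial progenitors also express, read 729.0, 403.2, 143.5 and 150.5 in the same order, 4.84-fold higher (another probe set gave 1.01 on the log2 scale), and Ngfr, a neurotrophin receptor, read 137.5, 51.6, 152.7 and 614.9 and was 4.47-fold lower, in a list whose 5 measured genes had a median of -0.24. Among immediate early genes Fos was 3.54-fold and Nr4a1 2.31-fold higher, and the median of the 14 measured was 0.06. Cd14, a receptor for bacterial lipopolysaccharide, was 3.50-fold higher. Aldoc, a glycolytic aldolase, read 3486, 1638, 996.7 and 871.6 (another probe set gave 1.01 on the log2 scale) and was 2-fold or more higher, as were the muscle forms Pgam2 and Eno3, by 4.25 and 3.59 on the log2 scale.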
